A study of Homo sapiens with 6 samples.

Results

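The MAF and BACH genes examined here are 6 basic leucine zipper transcription factor genes, taken by name from a list: the large MAF gene MAF (c-MAF), the small MAF genes MAFF, MAFG and MAFK, and their dimer partners BACH1 and BACH2. All 6 were among the 34893 genes to which the transcripts of the study could be assigned, and all 6 were among the 14569 genes that passed the filter on low counts. The study compared THP-1, a human acute monocytic leukaemia cell line, as supplied by 2 biorepositories. The groups are 3 libraries from DSMZ cells and 3 from ATCC cells. Every culture was untreated and kept in RPMI with 20% fetal bovine serum for 48 h, split, and collected after another 24 h, with both stocks grown side by side. The labels describe the replicate expansions as independent, so p-values rest on the spread between expansions of 1 stock per supplier.

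Proteins of this family bind DNA as dimers at MAF recognition elements and the related antioxidant response elements. MAF itself carries an activation domain and is known in macrophages, T helper cells and multiple myeloma. The small MAF proteins lack such a domain, and what they do depends on the partner: with NFE2, NRF1 (gene NFE2L1), NRF2 (NFE2L2) or NRF3 (NFE2L3), the cap'n'collar (CNC) activators, they switch genes on, and with BACH1 or BACH2 they switch them off. BACH1 binds heme, which releases it from genes such as the heme oxygenase gene HMOX1. BACH2 is best known from B and T lymphocytes.

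The 6 libraries held 23413428 to 37119721 estimated counts. Levels in CPM are these counts scaled to a common library size, adjusted by the trimmed mean of M values (TMM). Markers of the labelled cell type were present, with all 8 monocyte markers tested and a summed level of 757 to 906 CPM in DSMZ against 731 to 1107 CPM in ATCC. Of the 8, 1 was higher in DSMZ and 4 were lower (62.5%, against 49.8% of all tested genes that differed). The 4 include CD14, which could pass the filter on low counts only through ATCC, so this share is no measure of the markers. CD14 was scarce, at 0.334 ± 0.0929 CPM in DSMZ and 1.32 ± 0.372 CPM in ATCC (SD, n = 3). The 4 T cell markers summed to 0 to 0.111 CPM in DSMZ against 0.177 to 0.25 CPM in ATCC. B cell markers summed to 10.3 to 13.3 CPM in DSMZ against 1.78 to 2.69 CPM in ATCC, while the defining B cell gene MS4A1 had 0 counts in all 6 libraries. By base composition, the library ATCC replicate 2 was unlike its companions: relative to the ATCC mean, the median gene in the lowest of 10 groups by GC content lay at -0.61 in it (log2 CPM), against 0.40 and 0.19 in ATCC replicates 1 and 3, and in the highest group at 0.23, against -0.16 and -0.07. Main results that it moves are given with and without it. All fold changes are DSMZ over ATCC.

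Between the stocks, MAF and BACH1 differed, in opposite directions, and the other 4 genes did not pass the test. MAF messenger RNA (mRNA) was nearly absent from DSMZ cells and scarce in ATCC cells, and BACH1 was 2.32-fold higher in DSMZ. The 2 calls are 33.3% of the 6 genes, against 49.8% of all tested genes that passed the same threshold, so the share is not above the background. Both differed by more than 2-fold, as did 21.3% of all tested genes, MAF by more than 16-fold (1.6%), and these were also the 2 genes whose libraries did not overlap between the stocks (62.4%). Without ATCC replicate 2 the difference of BACH1 was less than 2-fold, at a log2 fold change of 0.93. MAF could pass the filter on low counts only through ATCC, the stock in which it was high. Its place in these counts and shares is therefore no measure of the family. The threshold was an adjusted p of 0.05 in edgeR's quasi-likelihood test with Benjamini-Hochberg adjustment over all tested genes.

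**Figure D1:**
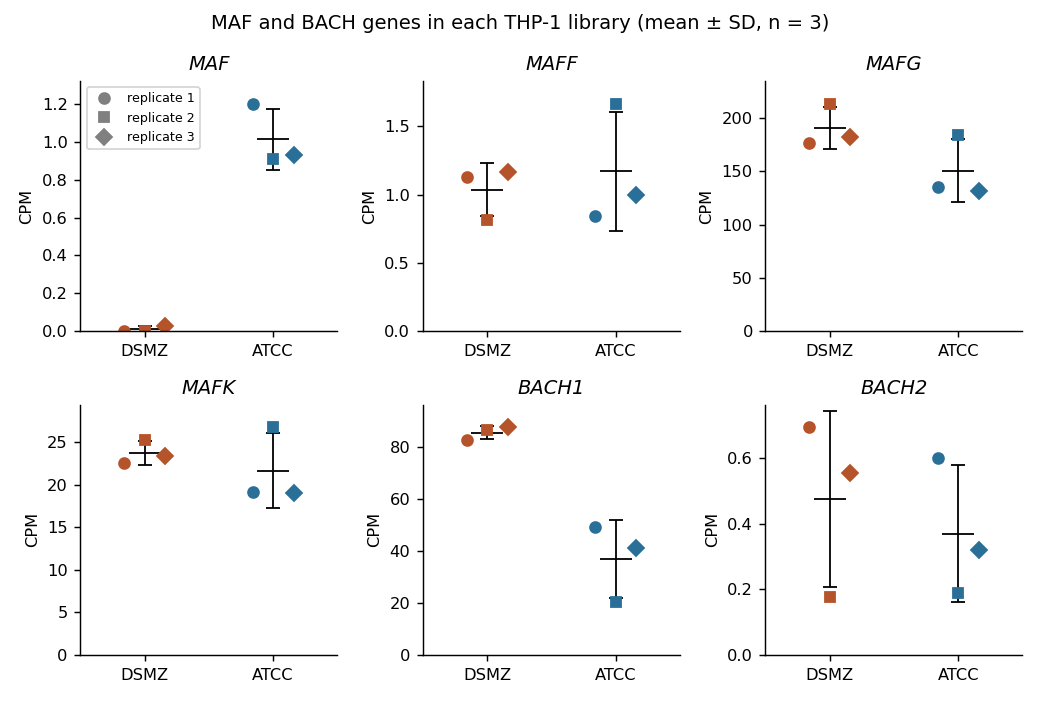
Level of each gene in CPM (vertical axes, starting at 0) in the 3 DSMZ libraries on the left and the 3 ATCC libraries on the right of each panel, with bars for the mean ± SD. MAF and BACH1 do not overlap between the stocks, and ATCC replicate 2 (square) is the ATCC library farthest from the other ATCC libraries in the panels of MAFF, MAFG, MAFK and BACH1.

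MAF lies on chromosome 16 from 79585843 to 79600714 on the minus strand (GRCh38). It had 0, 0 and 1 counts in DSMZ replicates 1 to 3, against 34, 24 and 26 counts in ATCC replicates 1 to 3. In CPM these are 0, 0 and 0.0278 in DSMZ, against 1.20, 0.909 and 0.928 in ATCC. Every ATCC library held more MAF than any DSMZ library. The ratio of DSMZ to ATCC was 0.0109 with a 95% exact interval of 0.000273 to 0.0625, which covers counting error only. The edgeR adjusted p was 0.000128 and stayed at or below 0.00371 in all 16 alternatives that tested the gene. Even in ATCC, MAF was a low transcript, at 0.213 ± 0.0410 TPM (the deposited level scaled by transcript length and library; SD, n = 3). In bulk RNA, fewer cells with a transcript cannot be told apart from less of it per cell.

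Of the 3 annotated MAF transcripts in the files, the unspliced MAF-202 (1 exon, 6384 bases) carried 82.2% ± 3.58 of the gene's TPM in ATCC (SD, n = 3). The spliced MAF-201 (2 exons, 2646 bases) carried 17.8% ± 3.58. The single DSMZ count fell on MAF-202, so no make-up can be given for DSMZ.

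The promoter of MAF is shown because this gene differs most between the stocks. The window runs from 250 bases before to 50 bases after the start (RefSeq, GRCh38.p14, chr16:79600688-79600987, minus strand), and capitals mark the letters TGACGTCA, the cAMP response element, and TATAAA, the TATA box.
MAF: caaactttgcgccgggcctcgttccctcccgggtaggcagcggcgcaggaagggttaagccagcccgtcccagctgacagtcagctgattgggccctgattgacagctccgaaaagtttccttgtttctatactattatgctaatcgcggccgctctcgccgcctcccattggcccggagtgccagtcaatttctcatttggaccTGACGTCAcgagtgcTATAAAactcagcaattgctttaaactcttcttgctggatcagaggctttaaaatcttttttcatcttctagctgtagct
Its GC content is 51.7%, against a median of 58.3% over the 27305 promoters of the same table. TATAAA on the gene's own strand was in 7.71% of these promoters. TGACGTCA, which reads the same on both strands, was in 1.98% of them and in 3 of the 5 family promoters in the table (MAF, MAFF and BACH2, with MAFG and BACH1 lacking it, and MAFK having no entry). The BACH1 window (chr21:29304954-29305253) lies inside the annotated gene, which starts at 29194071. Whether that start is the one used in THP-1 was not tested, so the absence of a motif there may not hold for the promoter in use. Both motifs were chosen after the sequences were read. The 30 bases around each TGACGTCA, with that element in capitals, set the 3 promoters side by side, at chr16:79600764-79600793 (minus strand) for MAF, chr22:38201929-38201958 (plus strand) for MAFF and chr6:90296907-90296936 (minus strand) for BACH2.
MAF: tcatttggaccTGACGTCAcgagtgctata
MAFF: ggccgggtcggTGACGTCAccgcatgactg
BACH2: tggggagcgggTGACGTCAgcgccgaatgt
Of these 3 genes only MAF passed the test between the stocks. A match of letters is a description and not evidence of a bound site.

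The DNA targets of the family itself were searched on both strands. TGACNNNGC, the core of the antioxidant response element, was in 13.6% of all promoters and, among the family, in that of MAFF. TGCTGAC, which a MAF protein contacts at one side of its element, was in 4.20% of all promoters, TGANTCA, the AP-1 core, in 7.76%, and the extended MAF recognition element of the AP-1 type, which contains that core, in 0.399%. None of these 3 was in the 5 family promoters of the table, with the limit for BACH1 given above. Among the antioxidant, heme and iron genes described further below, 12 of 19 had an entry, with TGACNNNGC in GCLM, TXNRD1 and ME1, TGCTGAC and TGANTCA each in OSGIN1 and ME1, and the extended element in OSGIN1.

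The small MAF genes were led by MAFG (chromosome 17, 81918270 to 81927714, minus strand). It stood at 176, 213 and 182 CPM in DSMZ, against 136, 184 and 131 CPM in ATCC. ATCC replicate 2, the highest of its stock, lay inside the DSMZ range. The log2 fold change was 0.34 with a standard error (SE) of 0.15 (edgeR adjusted p = 0.0993). Without ATCC replicate 2 it was 0.52 (SE 0.09, adjusted p = 0.000661), and with each library's GC trend removed it was 0.39 (SE 0.10, adjusted p = 0.00668). The corrected levels were 177, 213 and 186 CPM in DSMZ, against 144, 161 and 134 CPM in ATCC, without overlap. Calls are more frequent in these settings for all genes too, at 64% of genes without ATCC replicate 2 and 63.8% with the GC correction.

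MAFK (chromosome 7, 1530714 to 1543043, plus strand) was less abundant. It stood at 22.6, 25.2 and 23.3 CPM in DSMZ, against 19.2, 26.7 and 19.0 CPM in ATCC, where replicate 2 was the highest of all 6 libraries. The log2 fold change was 0.13 (SE 0.15, edgeR adjusted p = 0.500), and 2 SE either side span -0.17 to 0.44. It was 0.32 (SE 0.08, adjusted p = 0.00778) without ATCC replicate 2 and 0.27 (SE 0.08, adjusted p = 0.0172) after the GC correction. The messages of MAFG and MAFK have GC contents of 57.2% and 63.4%, and GC-rich genes were high in ATCC replicate 2.

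MAFF (chromosome 22, 38200767 to 38216511, plus strand), known as a stress- and cytokine-inducible small MAF, was scarce. It stood at 1.13, 0.814 and 1.17 CPM in DSMZ, against 0.848, 1.67 and 0.999 CPM in ATCC. The stocks overlapped, with the highest value in ATCC replicate 2 and the lowest in DSMZ replicate 2. The log2 fold change was -0.17 (SE 0.31, edgeR adjusted p = 0.679). An interval of 2 SE either side, from -0.78 to 0.45, leaves room for a moderate difference in either direction, and the sign turned to 0.18 without ATCC replicate 2.

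Summed per library, the small MAF genes reached 65.9, 81.8 and 60.3 TPM in DSMZ, against 55.8, 70.7 and 49.5 TPM in ATCC. These sums overlapped (69.4 ± 11.1 TPM in DSMZ and 58.6 ± 10.9 TPM in ATCC, SD, n = 3; exact two-sided permutation p = 0.4). MAFG supplied 84.6% ± 1.11 of the sum in DSMZ and 83.4% ± 0.726 in ATCC, MAFK 14.5% ± 1.13 in DSMZ and 15.5% ± 0.691 in ATCC, and MAFF 0.930% ± 0.0760 in DSMZ and 1.13% ± 0.313 in ATCC. The ranges of all 3 shares overlapped between the stocks (exact two-sided permutation p of 0.3 for MAFG, 0.3 for MAFK and 0.4 for MAFF). With 3 libraries a stock, an exact two-sided permutation test cannot go below p = 0.1.

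In MAFG and MAFK the same transcript led in all 6 libraries, and a shorter one varied. MAFG-201 (5040 bases) held 74.8% ± 5.11 of MAFG's TPM in DSMZ and 71.1% ± 3.58 in ATCC. The shorter MAFG-203 (570 bases) held 23.6% ± 4.79 in DSMZ and 25.8% ± 1.63 in ATCC. MAFK-201 held 79.1% ± 7.08 of MAFK's TPM in DSMZ and 80.4% ± 2.68 in ATCC, and MAFK-203 held 21.4%, 15.7% and 2.12% in DSMZ, against 13.2%, 9.56% and 12.2% in ATCC. For MAFF the leading transcript changed between replicates of the same stock: MAFF-201 held 97.2%, 0% and 54.1% in DSMZ, against 96.9%, 0% and 25.8% in ATCC, so its make-up was not resolved at this depth. SIRT7 overlaps MAFG on the same strand and PLA2G6 overlaps MAFF on the other, and reads in the shared bases cannot be assigned to 1 gene with certainty.

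BACH1 (chromosome 21, 29194071 to 29630751, plus strand), the heme-sensing repressor, was higher in DSMZ. It stood at 82.9, 86.6 and 87.7 CPM in DSMZ, against 49.3, 20.3 and 41.4 CPM in ATCC. No library of one stock reached the other, and ATCC replicate 2 was far below its companions. The mean was 85.7 ± 2.50 CPM in DSMZ and 37.0 ± 15.0 CPM in ATCC (SD, n = 3), a log2 fold change of 1.21 (SE 0.29, edgeR adjusted p = 0.00997).

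The message of BACH1 has a GC content of 38.6%, and such genes were low in ATCC replicate 2. Without that library the log2 fold change was 0.93 (SE 0.08, adjusted p = 1.71e-05). With the GC trend removed it was 1.06 (SE 0.11, adjusted p = 5.4e-05), and the corrected levels were 76.9, 81.0 and 79.2 CPM in DSMZ, against 42.1, 31.0 and 40.0 CPM in ATCC. On TPM, where limma was run on log2(TPM + 0.5), it was 1.12 (SE 0.44) and missed the threshold (adjusted p = 0.0738). TPM stood at 22.6, 21.8 and 22.6 in DSMZ, against 18.9, 4.51 and 11.5 in ATCC.

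Part of the TPM of BACH1 came from short transcripts, to which few reads give a large TPM. BACH1-202, a long form of 5 exons and 5769 bases, stood at 16.8, 16.4 and 15.3 TPM in DSMZ, against 10.2, 2.90 and 7.74 TPM in ATCC. It held 72.3% ± 4.01 of the gene's TPM in DSMZ and 61.8% ± 6.99 in ATCC. BACH1-206, of 777 bases, held 3.13% ± 2.46 in DSMZ and 13.5% ± 2.90 in ATCC, with no overlap. BACH1-213, of 349 bases, held 17.4%, 12.96% and 9.35% in DSMZ, against 18.6%, 0% and 0% in ATCC. BACH1-201, a second long form of 5 exons and 5669 bases, held 5.25% ± 4.60 in DSMZ and 10.3% ± 13.2 in ATCC. These shares come from kallisto's division of shared reads, also between the long forms BACH1-202 and BACH1-201, and were not tested across genes.

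BACH2 (chromosome 6, 89926529 to 90296908, minus strand) was close to the limit of detection, with 16, 5 and 20 counts in DSMZ, against 17, 5 and 9 counts in ATCC. In CPM this is 0.695, 0.177 and 0.556 in DSMZ, against 0.600, 0.189 and 0.321 in ATCC. Replicate 2 was the lowest in each stock and the ranges overlapped. The log2 fold change was 0.33 (SE 0.56, edgeR adjusted p = 0.650), with 2 SE either side spanning -0.79 to 1.45. The values leave room for a difference anywhere within that interval. Without ATCC replicate 2 the value was 0.04.

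Per length, the order of the 6 genes in DSMZ was MAFG, BACH1, MAFK, MAFF, BACH2 and MAF. Their mean levels there were 58.7 ± 10.03, 22.3 ± 0.442, 9.98 ± 1.21, 0.642 ± 0.0852, 0.131 ± 0.0776 and 0.00166 ± 0.00287 TPM (SD, n = 3), and no neighbours in that order overlapped. In ATCC the order was MAFG, BACH1, MAFK, MAFF, MAF and BACH2. Levels there were 48.9 ± 9.31, 11.6 ± 7.20, 9.03 ± 1.35, 0.678 ± 0.295, 0.213 ± 0.0410 and 0.0504 ± 0.0324 TPM. BACH1 and MAFK were not separated in ATCC, because BACH1 in replicate 2 fell below every value of MAFK. The 2 stocks thus share the order of the 4 most abundant genes and differ in which of MAF and BACH2 is last.

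**Figure D2:**
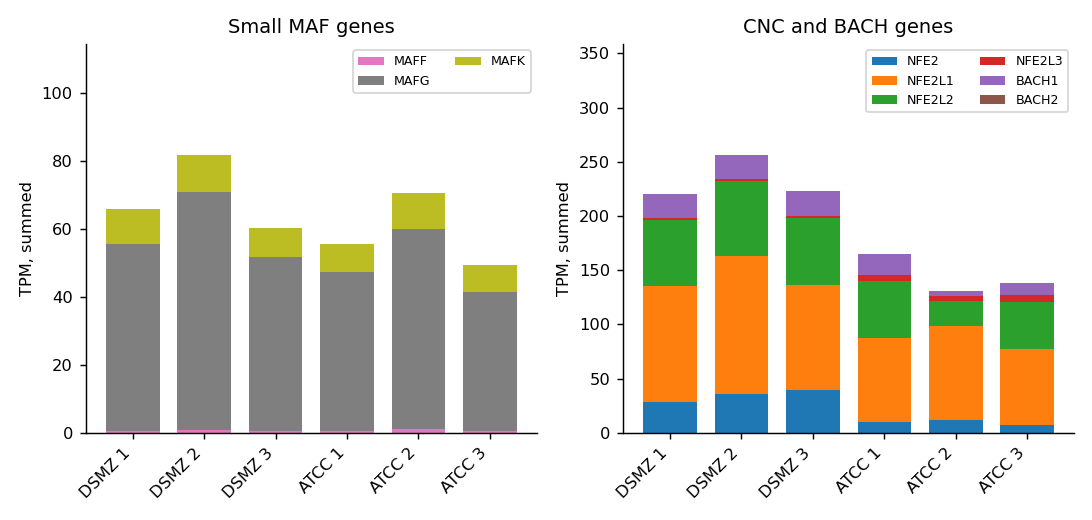
Summed TPM (vertical axes, from 0) of the small MAF genes (left) and of the CNC and BACH genes (right) in each library, DSMZ first, with bars divided by gene. MAFG makes up most of the small MAF sum in all 6 libraries, and the CNC and BACH sum is 220 TPM or more in each DSMZ library and at most 165 TPM in the ATCC libraries.

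The genes that encode the other partners of the small MAF proteins all differed. Of the 4 CNC activators 3 were higher in DSMZ and 1 in ATCC, 4 of 4 against 49.8% of all tested genes (24.1% higher in DSMZ and 25.7% higher in ATCC), with a median log2 fold change of 0.61 against 0.01 over all genes. NFE2, the erythroid and megakaryocytic p45 subunit, stood at 36.2, 44.3 and 51.4 CPM in DSMZ, against 11.3, 15.4 and 9.53 CPM in ATCC. This is a log2 fold change of 1.87 (SE 0.21, edgeR adjusted p = 0.000286). Erythroid and megakaryocytic markers were low in both stocks: HBB had 1 count in DSMZ and 0 in ATCC, PF4 had 0 in both, and ITGA2B stood at 1.25 ± 0.482 CPM in DSMZ and 0.963 ± 0.231 CPM in ATCC.

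NFE2L1, which controls proteasome genes, stood at 194, 197 and 195 CPM in DSMZ, against 126, 160 and 129 CPM in ATCC (log2 fold change 0.50, SE 0.11, edgeR adjusted p = 0.00799). Its call was lost without DSMZ replicate 2 (adjusted p = 0.0537) or ATCC replicate 3 (adjusted p = 0.0647). NFE2L1 lies on chromosome 17, where the median log2 fold change over 893 tested genes was 0.38. The part of that shift in the value of NFE2L1 was not tested. NFE2L2, which encodes NRF2, stood at 113, 126 and 122 CPM in DSMZ, against 93.1, 43.8 and 81.8 CPM in ATCC. Its log2 fold change was 0.72 (SE 0.25, edgeR adjusted p = 0.0450), and 0.47 (SE 0.08, adjusted p = 0.000629) without ATCC replicate 2. The call was lost without any 1 of the DSMZ libraries or without ATCC replicate 3, at adjusted p of 0.0558 to 0.106, and on TPM (limma adjusted p = 0.0561 with either pseudocount). NFE2L3 went the other way, at 3.95, 3.93 and 4.14 CPM in DSMZ, against 12.1, 9.54 and 13.3 CPM in ATCC (log2 fold change -1.54, SE 0.16, edgeR adjusted p = 0.000193).

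With BACH1 and BACH2 added, the CNC and BACH genes summed to 220, 256 and 223 TPM in DSMZ, against 165, 131 and 138 TPM in ATCC. The means were 233 ± 20.0 TPM in DSMZ and 145 ± 17.99 TPM in ATCC, without overlap (exact two-sided permutation p = 0.1, the smallest possible). NFE2 made up 15.1% ± 2.54 of that sum in DSMZ and 6.88% ± 2.01 in ATCC, and NFE2L3 0.788% ± 0.0718 in DSMZ and 3.90% ± 0.562 in ATCC, each without overlap. The share of BACH1 was 9.63% ± 0.966 in DSMZ and 7.75% ± 4.04 in ATCC, with overlap. For each TPM of the CNC and BACH genes there were 0.299, 0.320 and 0.271 TPM of small MAF genes in DSMZ, against 0.338, 0.541 and 0.358 in ATCC, without overlap (exact two-sided permutation p = 0.1).

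Because BACH1 and NFE2L2 compete for the same elements and both have low GC contents (38.6% and 40.6%), their ratio within a library was examined, a comparison added after the values were seen. In estimated counts the ratio of BACH1 to NFE2L2 was 0.734, 0.688 and 0.718 in DSMZ, against 0.530, 0.463 and 0.506 in ATCC. The means were 0.713 ± 0.0234 in DSMZ and 0.500 ± 0.0340 in ATCC (SD, n = 3; exact two-sided permutation p = 0.1). ATCC replicate 2, which lay far below its companions in each gene, lay much closer to them in the ratio. In TPM the ratio overlapped, at 0.372, 0.316 and 0.365 in DSMZ, against 0.361, 0.193 and 0.266 in ATCC.

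**Figure D3:**
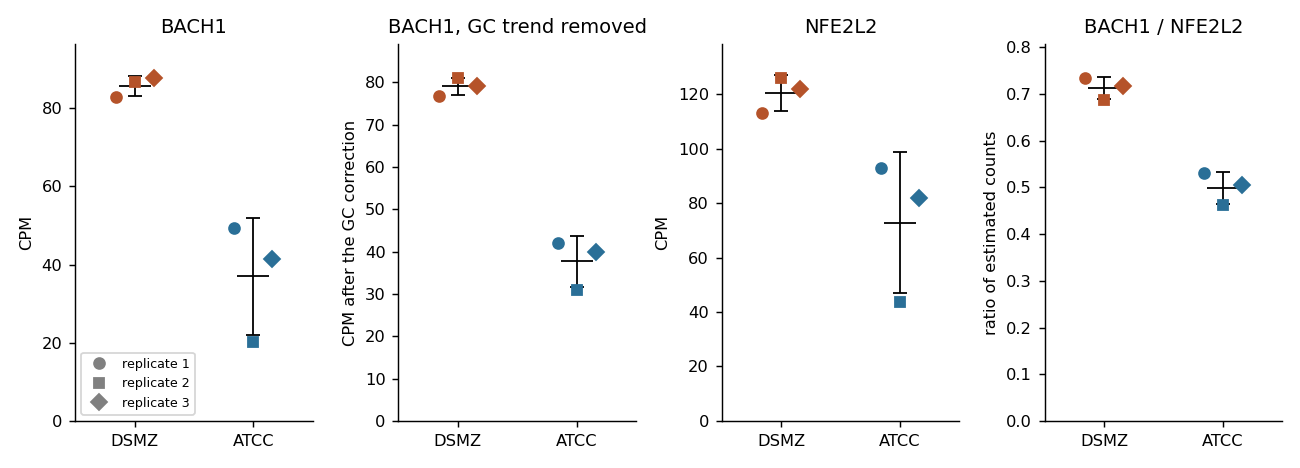
BACH1 in CPM, BACH1 in CPM after removal of each library's GC trend, NFE2L2 in CPM, and the ratio of their estimated counts (vertical axes, all from 0), with DSMZ left of ATCC and bars for mean ± SD. ATCC replicate 2 (square) is at 20.3 CPM of BACH1 as counted and 31.0 CPM after the correction, and the ratio is 0.688 or more in DSMZ and 0.530 or less in ATCC.

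Genes for the turnover of these proteins moved little as first fitted: 2 of 9 were higher in DSMZ and 0 in ATCC (22.2% of 9, below the 49.8% of all genes; at unadjusted p under 0.05, RBX1 is added). BTRC, a ubiquitin ligase subunit that recognises NRF2, had a log2 fold change of 0.85 (SE 0.12, edgeR adjusted p = 0.000821), with 12.7, 13.9 and 12.3 CPM in DSMZ, against 6.96, 6.74 and 7.78 CPM in ATCC. Its call was lost on TPM (limma adjusted p of 0.0573 and 0.0646). GSK3B, a kinase that phosphorylates MAF and NRF2, had 0.78 (SE 0.13, adjusted p = 0.00223). KEAP1, the adaptor that holds NRF2 in the cytoplasm, stood at 73.2 ± 2.42 CPM in DSMZ and 88.1 ± 13.4 CPM in ATCC, and did not pass (-0.27, SE 0.12, adjusted p = 0.110). It passed in 4 of 17 alternatives, with the GC correction (-0.17, adjusted p = 0.0263) and on TPM (-0.35, limma adjusted p = 0.0144) among them, and was at -0.13 (adjusted p = 0.102) without ATCC replicate 2. FBXO22 and FBXL17, F-box proteins that target BACH1, lay at 0.17 and -0.13 and did not pass as first fitted. With the GC correction 8 of the 9 passed, 6 of them with more mRNA in DSMZ. Without ATCC replicate 2 it was 7, again 6 with more in DSMZ, so this count changed with the setting. In the same settings 63.8% and 64% of all tested genes passed.

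Genes with antioxidant response or MAF recognition elements went in both directions, and HMOX1, the classic BACH1 target, was scarce in both stocks. Of 19 tested genes, 10 passed the test, 3 with more mRNA in DSMZ and 7 with less (52.6%, near the 49.8% of all genes). HMOX1 stood at 0.955, 0.814 and 0.806 CPM in DSMZ, against 0.742, 1.17 and 0.428 CPM in ATCC, with overlap (0.13, SE 0.35, edgeR adjusted p = 0.775). It was 0.55 without ATCC replicate 2 and -0.19 without ATCC replicate 3, and did not pass in either. NQO1, GCLC and TXNRD1, widely used NRF2 targets, had log2 fold changes of 0.13, -0.00 and -0.10 and did not pass.

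The genes of iron handling in this list split. SLC40A1, the iron exporter ferroportin, stood at 30.9, 33.4 and 36.0 CPM in DSMZ, against 16.7, 9.39 and 13.4 CPM in ATCC (1.34, SE 0.20, edgeR adjusted p = 0.00122). Ferritin heavy chain FTH1 was higher in DSMZ at 305 ± 17.8 CPM against 155 ± 28.3 CPM in ATCC (0.98, SE 0.14, adjusted p = 0.000870). Ferritin light chain FTL was lower in DSMZ at 881 ± 26.0 CPM against 1691 ± 443 CPM in ATCC (-0.94, SE 0.17, adjusted p = 0.00316); it fell outside the rule for named genes and was chosen after its values were seen. Both ferritins have processed pseudogenes that can take reads. The NADPH-producing malic enzyme ME1 was lower in DSMZ, at 8.16, 6.16 and 5.98 CPM, against 23.7, 20.8 and 27.8 CPM in ATCC (-1.84, SE 0.17, adjusted p = 0.000139). Thioredoxin TXN was lower as well, at 132 ± 6.96 CPM in DSMZ against 295 ± 30.5 CPM in ATCC (-1.16, SE 0.11, adjusted p = 0.000123).

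**Figure D4:**
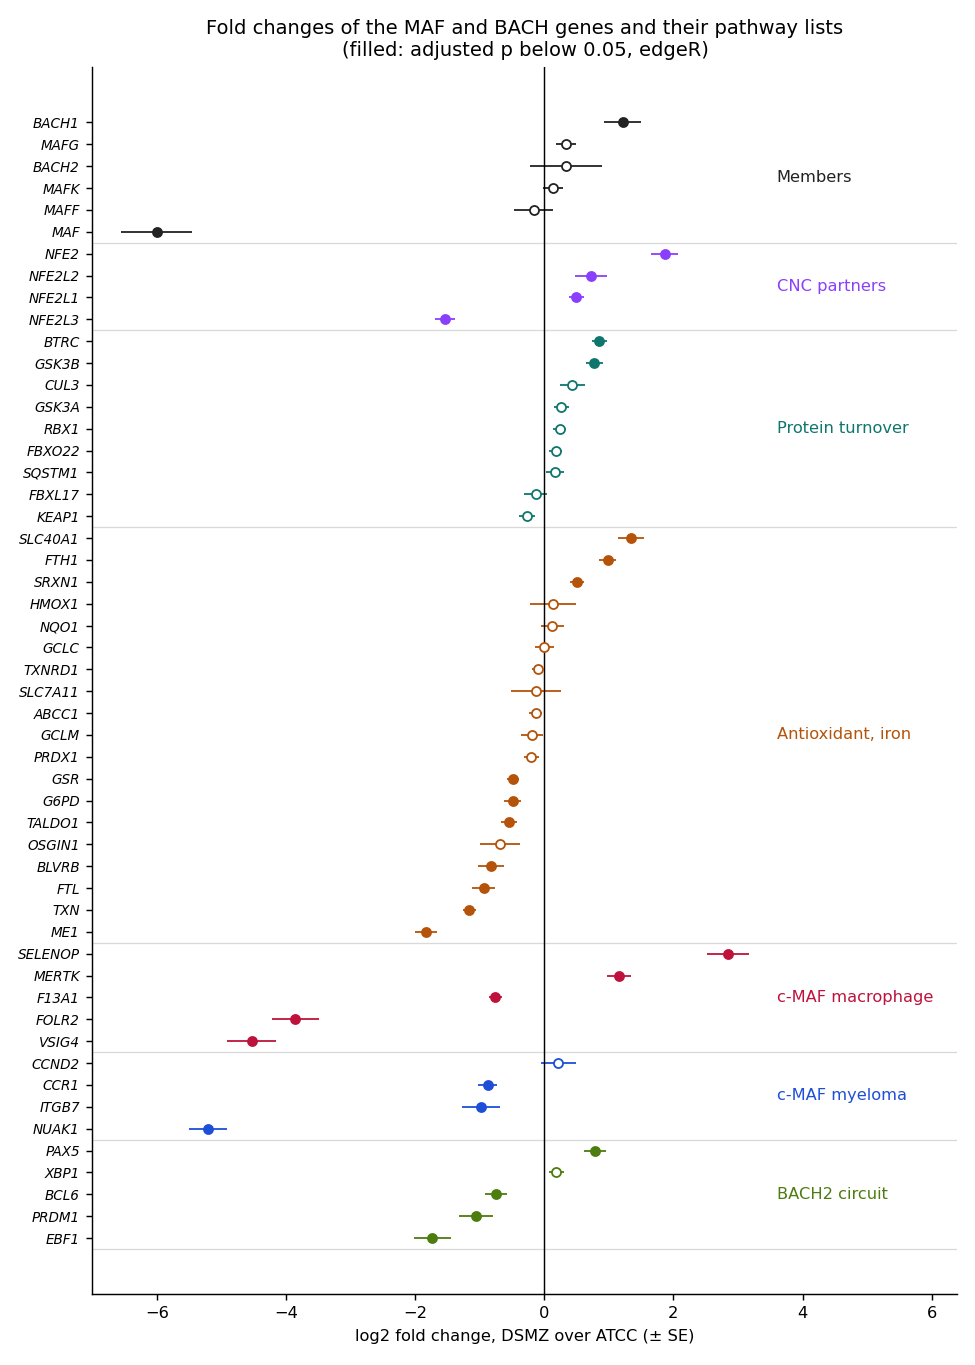
Log2 fold change of DSMZ over ATCC (horizontal axis, ± SE) for the 6 MAF and BACH genes and the tested genes of each pathway list (rows), with filled points for an adjusted p below 0.05. MAF lies farthest to the left at -6.01, NUAK1 of the c-MAF myeloma list lies at -5.21, and the antioxidant genes lie on both sides of 0.

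Genes tied to c-MAF in macrophages and in myeloma were examined beside MAF itself. Of 13 macrophage genes only 5 passed the filter on low counts, and several of those could pass only through the stock in which they were high, so the count of 5 differing among 5 is no measure of the list. FOLR2, the folate receptor beta, stood at 0.130, 0.319 and 0.139 CPM in DSMZ, against 2.93, 3.52 and 2.21 CPM in ATCC (-3.85, SE 0.36, edgeR adjusted p = 0.000135). F13A1, the A subunit of clotting factor XIII, stood at 17.2 ± 0.569 CPM in DSMZ and 29.2 ± 1.65 CPM in ATCC (-0.76, SE 0.10, adjusted p = 0.000616). SELENOP, a plasma selenoprotein, and MERTK, a receptor for apoptotic cells, were higher in DSMZ, at 2.84 (SE 0.33) and 1.16 (SE 0.19), so the list did not move in 1 direction. MERTK lost its call on TPM (limma adjusted p of 0.226 and 0.234). VSIG4, a complement receptor, had 3 counts in DSMZ and 74 in ATCC (-4.53, SE 0.38, edgeR adjusted p = 8.71e-05). CD163, the haemoglobin scavenger receptor, had 1 count in DSMZ and 19 in ATCC, IL10 had 9 in DSMZ and 8 in ATCC, while C1QB and LYVE1 were not detected in either stock. A count of 0 over a stock leaves room for 3 counts, or 0.0338 CPM in DSMZ and 0.0368 CPM in ATCC. CD163, IL10, C1QB and LYVE1 did not pass the filter on low counts. For CD163 the ratio of DSMZ to ATCC was 0.0483, with an exact 95% counting interval of 0.00116 to 0.304. With no filter 11 of the 13 genes were tested and 7 differed, 2 with more mRNA in DSMZ and 5 with less. In that setting 7333 of all 22640 tested genes differed.

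In the myeloma list 3 of 4 genes were lower in DSMZ, against 25.7% of all tested genes, and 0 were higher. One of them, NUAK1, could pass the filter on low counts only through ATCC. NUAK1, an AMPK-related kinase, had 5 counts in DSMZ against 188 in ATCC (-5.21, SE 0.29, edgeR adjusted p = 1.92e-05). The integrin subunit ITGB7 stood at 11.4, 11.3 and 6.70 CPM in DSMZ, against 14.5, 26.9 and 16.3 CPM in ATCC (-0.98, SE 0.29, adjusted p = 0.0258), and lost its call without DSMZ replicate 3 (-0.75, adjusted p = 0.0802). The chemokine receptor CCR1 stood at 40.5, 34.0 and 28.9 CPM in DSMZ, against 68.4, 66.7 and 54.8 CPM in ATCC (-0.88, SE 0.15, adjusted p = 0.00249). Cyclin D2 (CCND2), the best known myeloma target of c-MAF, did not pass (0.22, SE 0.27, adjusted p = 0.524). Whether these genes answer to MAF in THP-1 was not tested.

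Of 7 B lineage genes linked to BACH2, 5 were tested, 1 was higher in DSMZ and 3 were lower (24.1% and 25.7% of all tested genes). One of the 3, EBF1, could pass the filter on low counts only through ATCC. At a mean of at least 1 CPM, 4 were tested, 1 was higher in DSMZ and 2 were lower. In that setting 6586 of all 12904 tested genes differed. PAX5, the B cell identity factor, stood at 8.94, 7.72 and 8.37 CPM in DSMZ, against 4.73, 3.94 and 5.85 CPM in ATCC (0.78, SE 0.17, edgeR adjusted p = 0.00637). PRDM1, the plasma cell regulator that BACH2 represses in B cells, stood at 6.73, 4.07 and 5.56 CPM in DSMZ, against 15.0, 8.06 and 10.9 CPM in ATCC (-1.06, SE 0.27, adjusted p = 0.0127). BCL6, a germinal centre repressor, was also lower in DSMZ (-0.75, SE 0.17, adjusted p = 0.00728), as was EBF1, an early B cell factor, at 34 counts in DSMZ and 107 in ATCC (-1.74, SE 0.29, adjusted p = 0.00185), whose call was lost on protein-coding transcripts alone. XBP1, a factor of secretory cells, did not pass (0.19, SE 0.12, adjusted p = 0.226). On TPM the calls of PRDM1 and BCL6 were lost (limma adjusted p of 0.0575 to 0.131). The B cell markers CD79A and CD79B were higher in DSMZ (2.13, SE 0.24, and 3.28, SE 0.24; edgeR adjusted p of 0.000329 and 4.69e-05), and the part of these markers in the result was not tested.

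Each gene was also set beside its neighbours in the genome. Among the 48 tested genes within 5 Mb of MAF, the median log2 fold change was -0.07, with 7 higher in DSMZ and 12 in ATCC, and 0 reached the size of MAF. The nearest tested protein-coding genes were WWOX, 373 kb away, at 3.72 ± 0.558 CPM in DSMZ and 9.23 ± 0.650 CPM in ATCC (-1.31, SE 0.15, edgeR adjusted p = 0.000327), and CDYL2, 997 kb away on the other side, at 28.6 ± 1.61 CPM in DSMZ and 20.3 ± 3.93 CPM in ATCC (0.50, SE 0.15, adjusted p = 0.0304). The neighbours on the 2 sides of MAF thus went in opposite directions. CDYL2 lost its call in 6 of 17 alternatives, among them the omission of any DSMZ library or of ATCC replicate 3.

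BACH1 also stood away from its surroundings: the 45 tested genes within 5 Mb had a median of 0.08, and 4 of them reached the size of its fold change. The nearest tested protein-coding genes on either side were MAP3K7CL, 18.2 kb away (0.25, SE 0.25, edgeR adjusted p = 0.434), and SOD1, the cytosolic superoxide dismutase, 2029 kb away (-0.31, SE 0.11, adjusted p = 0.0444). The call of SOD1 was lost in 10 of 17 alternatives, each of the DSMZ libraries and ATCC replicate 3 left out among them. Of the 6 tested genes within 2 Mb of BACH1, 1 passed. This was N6AMT1, on the side of MAP3K7CL and lower in DSMZ (-1.04, edgeR adjusted p = 0.000266). For MAFG the 93 neighbours had a median of 0.27, with 37 higher in DSMZ and 7 in ATCC, and chromosome 17 as a whole had a median of 0.38, so the value of MAFG (0.34) lay near that of its region. For BACH2 the 27 neighbours had a median of 0.31, close to its own 0.33. Around MAFK (53 genes, median -0.15) and MAFF (131 genes, median -0.01) the median was below or near 0.

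**Figure D5:**
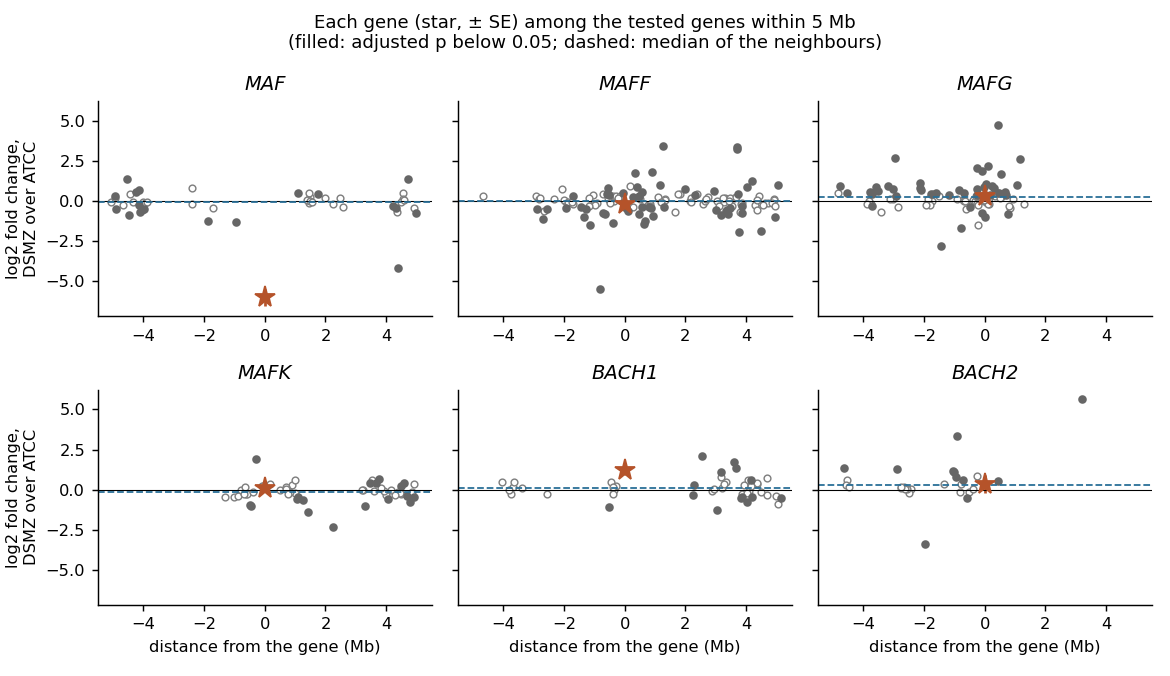
Log2 fold change of DSMZ over ATCC (vertical axis) against distance in Mb (horizontal axis) for the tested genes within 5 Mb of each gene, which is drawn as a star ± SE. The star of MAF lies below all 48 neighbours, that of BACH1 lies above most of its 45, and the stars of MAFG and BACH2 lie near the dashed median of theirs.

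Adjoining genes gave contrasts of their own. PYCR1, a proline synthesis enzyme 4.67 kb from MAFG, was lower in DSMZ (-0.98, SE 0.13, edgeR adjusted p = 0.000692), while PCYT2, 6.81 kb away on the other side, lay at 0.09 (SE 0.13, adjusted p = 0.601) and passed only with the GC correction. TMEM184B, 2.78 kb from MAFF, was lower in DSMZ (-0.41, SE 0.12, adjusted p = 0.0202; call lost in 6 of 17 alternatives, again without any DSMZ library or ATCC replicate 3), and PICK1 at 0.29 passed in 3 of 17 alternatives but not as first fitted. Beside MAFK, INTS1 (0.22) and PSMG3 (0.14) did not pass as first fitted, and each passed without ATCC replicate 2, as MAFK did. Beside BACH2, MAP3K7 (0.57, SE 0.19, adjusted p = 0.0370) was higher in DSMZ, a call lost in 5 of 17 alternatives that include the omission of any DSMZ library, and CASP8AP2 (0.83, SE 0.34, adjusted p = 0.0768) passed in 7 of 17 alternatives but not as first fitted, at 0.69 (adjusted p = 0.00467) with the GC correction and 0.52 (adjusted p = 0.0123) without ATCC replicate 2.

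Likeness of profile was measured as the root mean square difference of log2 CPM (with a prior count of 2) over the 6 libraries, after each gene was centred on its mean, among genes of at least 1 CPM. For MAF no such genes are given, because its DSMZ values on this scale are set by the prior count. The genes most like BACH1 were RALGPS2 (0.0351) and ANKRD36 (0.0419), in both of which ATCC replicate 2 was again the lowest library. MAFG was closest to TUBA4A (0.0613) and FHL3 (0.0615), and MAFK to CIAO2B (0.0227) and RASGRP2 (0.0387), with ATCC replicate 2 the highest ATCC library in all 4. MAFF was closest to ADAT3 (0.112) and AC068580.4 (0.131), and BACH2 to GDPD1 (0.354) and LCA5 (0.361), and at the few counts of MAFF and BACH2 the prior count weighs on these values too.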

How the data were processed

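Per the labels' protocols, RNA was purified with TriZol and RNeasy columns, and poly(A) libraries were made with a KAPA HyperPrep kit that keeps strand. The submitters' processing notes name bcl2fastq 2.20, Trimmomatic 0.35, kallisto 0.43.0 and GRCh38. The annotation release and the strand setting of the quantification are not given in the sources used here. Per the file headers, each deposited file lists 1 library's kallisto output by transcript: estimated counts, which are not normalized, and TPM.

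Of 179973 transcripts, 91.0% were assigned to GENCODE 29 genes by identifier and 7.90% by symbol. The other 1.13% (0.181 to 0.199% of counts) were left out. Counts were summed per gene and rounded to whole numbers. The test was edgeR's (version 4.0.16 in R 4.3.3) quasi-likelihood F test after filterByExpr and TMM, with the supplier as its single term. An SE was obtained from the size of the log2 fold change and the root of F. In counts simulated from these libraries (14569 genes), 6 of 67 genes with a 1.5-fold change were called, as were 48 of 67 with 2-fold and 61 of 66 with 4-fold changes, and 9 unchanged genes. No 2 libraries were repeats of each other (chi-square per degree of freedom of at least 4.52). The GC correction removed each library's lowess trend of log2 CPM deviations on GC content, known for 99.9% of tested genes. Alternatives were other normalizations and filters, DESeq2 1.42.0, limma 3.58.1 on log2(TPM + 0.5) and log2(TPM + 0.1), protein-coding transcripts, a replicate block, and leaving out each library. Intervals and floors cover counting error only. Promoters are RefSeq's (GRCh38.p14), matched by symbol.

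The members, lists and tests were chosen with earlier results of these data known. Named genes were the 6 members, NFE2L2, KEAP1, NFE2L1, NFE2 and HMOX1, and per list up to 4 called genes with the largest fold changes, no overlap and at least 1 CPM. Added to these were the nearest tested protein-coding gene on each side of each member, and N6AMT1 near BACH1. The 2 genes of most similar profile per member were added too, and are not given for MAF. Other list genes and markers are named to describe a list. Other large MAF genes are not reported here. Figures were drawn with matplotlib 3.10.9.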

Additional observations from a re-analysis of the deposited data

How the results depend on the processing

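MAF kept its direction and its call in all 16 alternatives that tested it, and was not tested at a mean of at least 1 CPM; its log2 fold change ranged from -7.77 to -5.59 with a library left out and shrank to -0.51 and -1.61 on log2(TPM + 0.5) and log2(TPM + 0.1), as pseudocounts do to low genes. BACH1 kept its direction and lost its call on log2(TPM + 0.5) (1.12) and log2(TPM + 0.1) (1.16), and ranged from 0.93 to 1.46 with a library left out. The cause of those lost calls was not tested. MAFG passed with the GC correction (0.39), the replicate block (0.35) and both together (0.39), and ranged from 0.22 to 0.52 with a library left out. MAFK passed with the GC correction (0.27) and with it and the block (0.27), and ranged from 0.022 to 0.32 with a library left out. MAFF turned to 0.18 without ATCC replicate 2 (range -0.39 to 0.18) and BACH2 passed in none of 16 settings (0.02 to 0.84 with a library left out). Called CNC genes ranged from 2 to 4 with a library left out, called turnover genes from 2 to 7, and reached 8 with the GC correction and 8 with it and the block. Called B lineage genes dropped to 2 on log2(TPM + 0.5) and 2 on log2(TPM + 0.1). HMOX1 turned to -0.19 without ATCC replicate 3 (range with a library left out -0.19 to 0.55), PCYT2 to -0.0033 without ATCC replicate 1 (range -0.0033 to 0.20), and MAP3K7CL to -0.24 on protein-coding transcripts. Over all genes, 5506 to 9511 were called with a library left out and 6253 to 9291 otherwise, against 7261 as first fitted. With upper quartile normalization 42.4% of calls were higher in DSMZ, against 48.4%.

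Whether same-numbered libraries share more than a number was not settled. Their deviations from the stock means correlated at 0.0123, 0.08 and 0.161 for replicates 1 to 3, against -0.103 to 0.0259 between unlike numbers. Of the 6 libraries, only DSMZ replicate 1 did not match its own number best. With the replicate block 7012 genes were called, MAF was at -5.99, MAFF at -0.14, MAFK at 0.15, BACH1 at 1.30 and BACH2 at 0.37. Medians of neighbours within 2 Mb were -0.23 to 0.48. Depth limits MAF in DSMZ, MAFF and BACH2, where a few counts decide the values.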
